A study of Mus musculus with 16 samples.

Results

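The 9 genes described here, Gad1, Gad2, Slc32a1, Slc6a5, Pvalb, Kit, Tfap2b, Sorcs3 and Lypd6, mark the inhibitory interneurons of the cerebellar cortex. They were chosen as genes of GABA and glycine synthesis or transport and as interneuron markers. Their 11 probes were found through the RefSeq accession of each probe, among 56605 different probes, of which 32994 carry the names of 22911 genes. Of these 11 probes, 10 passed the filter on dim spots, which covers 8 of the 9 genes. The filter kept 37253 probes in all.

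RNA came from cerebellar cortex of 16 mice, with 1 Agilent array of a single colour (Cy3) per mouse and 4 mice in each group. Loss of ATM, a kinase of the DNA damage response, causes ataxia telangiectasia, and the arrays asked how nicotinamide riboside (NR), a precursor of NAD+, acts on the cerebellum of mice that lack it. Groups were wild-type littermates given plain water (WT veh) or NR (WT NR), and Atm-/- mice given plain water (Atm-/- veh) or NR (Atm-/- NR). All were labelled male, 3.5 months old and of strain B6;129S4-Atmtm1Bal/J, and NR was given in drinking water at 3.5 mg/ml (12 mM) for 2 months from 6 weeks of age. The Atm allele is inherited, so that every cell type of these mice carries it.

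Values are log2 signals, the log2 of the brightness of a probe after the arrays were given the same distribution of brightness, and a difference of 1 is a change of 2-fold. They compare arrays for a given probe and not probes with each other. The scanner software placed 34945 to 42559 probes per array well above background, with 39134 to 41905 on Atm-/- veh arrays and 34945 to 37817 on Atm-/- NR arrays. The part of this gap in the results below was not tested. No spot was saturated. Of both Atm probes, A_66_P114939 was lower in Atm-/- veh than in WT veh by a log2 difference of -0.87 (limma, adjusted p = 3.2e-04), and A_52_P400509 differed by -0.35 (adjusted p = 0.22). All WT mice were on 1 slide and all Atm-/- mice on another, so that slide and genotype cannot be told apart. Each NR comparison lies within a slide, but all vehicle arrays were in row 1 of their slide and all NR arrays in row 2, so that NR and slide row cannot be told apart either. On 4 arrays, 2 of WT NR, 1 of Atm-/- veh and 1 of Atm-/- NR, Y-linked genes were not above background although the mice were labelled male. Xist, an RNA of female cells, was detected on these 4 arrays and on none of the 12 with Y-linked signal. The signals of these 4 arrays are thus those of female tissue, against their labels. WT veh held 0 of them and WT NR held 2, so that sex was not balanced in the NR comparison of WT mice.

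The array WT veh 4 stood apart in markers of choroid plexus and forebrain. The mean of 4 measured choroid plexus markers was 4.91 above its level over all arrays in log2 signal, against -1.10 to 0.70 on the other 15 arrays. Ttr, the thyroid hormone carrier made by choroid plexus, had a log2 signal of 18.05 there and at most 12.62 elsewhere. Forebrain markers were also raised, with a mean of 3.47 against -0.72 to 1.34, and Purkinje cell markers were lower, with a mean of -0.50 against -0.24 to 0.16. Among the interneuron genes, Slc32a1, Pvalb and Tfap2b were at their lowest and Sorcs3 was at its highest on this array. For the interneuron genes, by the brightest probe of each, values of the comparisons with WT veh are therefore also given without it.

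In the cerebellar cortex, basket and stellate cells of the molecular layer inhibit Purkinje cells with GABA, and Golgi cells inhibit granule cells with GABA and, in many of them, glycine. GABA is made from glutamate by the enzymes GAD67 (Gad1) and GAD65 (Gad2), and is loaded into vesicles, as is glycine, by the transporter VGAT (Slc32a1). Purkinje cells are GABAergic too and also express Gad1, Gad2, Slc32a1 and Pvalb, and in bulk tissue fewer cells of a type and less RNA per cell cannot be told apart.

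Pvalb and Kit varied together more closely than any other pair of these genes, as described further on, and the 250 bases before their transcription starts are shown for that reason. They are RefSeq sequences of assembly GRCm38.p6, read 5′ to 3′ on the strand of the gene. Capitals mark the motif GCCNNNGGC, which is bound by the AP-2 family that includes the Tfap2b protein, searched on both strands.
Pvalb, chr15:78206401-78206650, minus strand: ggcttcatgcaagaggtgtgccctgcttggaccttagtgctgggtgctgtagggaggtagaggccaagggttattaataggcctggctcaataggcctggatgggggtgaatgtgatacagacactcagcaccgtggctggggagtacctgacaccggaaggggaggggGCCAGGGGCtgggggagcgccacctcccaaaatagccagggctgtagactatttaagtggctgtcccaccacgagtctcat
Kit, chr5:75574737-75574986, plus strand: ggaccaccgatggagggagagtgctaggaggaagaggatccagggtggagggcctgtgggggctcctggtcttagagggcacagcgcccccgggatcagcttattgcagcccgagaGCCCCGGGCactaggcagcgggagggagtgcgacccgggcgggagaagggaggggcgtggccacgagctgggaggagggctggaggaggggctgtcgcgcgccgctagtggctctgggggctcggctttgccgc
Each holds 1 match, which starts at position -81 for Pvalb and at -134 for Kit. Where a gene had more than 1 annotated start, as Pvalb and Kit did, the window nearest the outer edge of the gene was used. The motif was found in 3 of the 9 gene windows, with Gad2 as the other, and in 13.7% of 32851 RefSeq windows of this length. The 3 windows held 58.4% to 70.8% G and C, and the others of the 9 held 46.4% to 70.4%. Base composition was not matched in the share of 13.7%. A match describes the letters and not a bound site.

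Gad1, which makes most of the GABA of the cell body, was brightest in Atm-/- veh. Its log2 signals were 14.58, 15.04, 15.07 and 14.81 in WT veh, and 15.22, 15.24, 15.05 and 15.45 in Atm-/- veh. With NR they were 15.08, 14.96, 15.06 and 14.89 in WT and 15.08, 15.07, 14.96 and 15.01 in Atm-/-. The groups WT veh and Atm-/- veh overlapped through 1 array of Atm-/- veh, and both NR groups were narrow, with means between theirs. The mean was 15.24 ± 0.16 (SD, n = 4) in Atm-/- veh and 14.88 ± 0.23 (SD, n = 4) in WT veh, a log2 difference of 0.37 (SE 0.11, limma adjusted p = 0.21), or 1.29-fold with a 95% interval of 1.09 to 1.52. Without WT veh 4 this difference was 0.34 (adjusted p = 0.22). Atm-/- NR against Atm-/- veh gave -0.21 (SE 0.11, adjusted p = 0.23), and WT NR against WT veh gave 0.12 (SE 0.11, adjusted p = 0.85) with all arrays and 0.10 (adjusted p = 0.82) without WT veh 4. The difference between both NR effects was -0.33 (SE 0.15, adjusted p = 0.84), and Atm-/- NR differed from WT NR by 0.03. The comparisons of Atm-/- veh with WT veh and of Atm-/- NR with Atm-/- veh share the Atm-/- veh arrays.

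Gad2, whose enzyme sits at nerve terminals and supplies GABA for vesicles, was lower on NR arrays. Log2 signals were 13.68, 13.57, 13.60 and 13.68 in WT veh and 13.45, 13.43, 13.63 and 13.36 in WT NR. In Atm-/- veh they were 13.58, 13.56, 13.55 and 13.71, and in Atm-/- NR 13.41, 13.54, 13.40 and 13.18. Every Atm-/- NR array was below every Atm-/- veh array (13.54 and 13.55 for the closest arrays), whereas the WT groups overlapped. The log2 difference was -0.22 in Atm-/- (SE 0.08, adjusted p = 0.12) and -0.17 in WT (SE 0.08, adjusted p = 0.69), and the NR effects differed by -0.05 (SE 0.12, adjusted p = 0.95). The genotypes differed by -0.03 with vehicle and by -0.09 with NR. Without WT veh 4, the NR difference in WT was -0.15 (adjusted p = 0.60) and the genotype difference with vehicle -0.02 (adjusted p = 0.95). The GAD genes, which make the same product, gave like values for Atm-/- NR against Atm-/- veh (-0.21 for Gad1 and -0.22 for Gad2). Their values differed in sign in the other comparisons between groups. None of these values was called, and the genes were not tested against each other.

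Slc32a1, the vesicular transporter for GABA and glycine, varied little. Its log2 signals were 17.06, 17.07, 17.03 and 16.53 in WT veh, 16.94, 17.00, 16.96 and 16.93 in WT NR, 16.84, 16.99, 16.74 and 16.85 in Atm-/- veh and 16.95, 16.99, 17.10 and 16.97 in Atm-/- NR. WT veh 4 was far below the other arrays of its group, and without it every Atm-/- veh array was below every WT veh array. The log2 difference between these groups was -0.07 (SE 0.11, adjusted p = 0.80) with all arrays and -0.20 (adjusted p = 0.21) without WT veh 4. For WT NR against WT veh the value turned from 0.03 (adjusted p = 0.98) to -0.10 (adjusted p = 0.65) without that array. Atm-/- NR against Atm-/- veh gave 0.15 (SE 0.11, adjusted p = 0.38), with a 95% interval of -0.08 to 0.38.

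Slc6a5, the transporter GlyT2 that supplies glycine to the terminals of Golgi cells, had no usable probe. Its only probe was not well above background on any of the 16 arrays, with signals of 3.96 to 10.8 (median 5.77, linear scale). The lowest signal of any probe well above background was 16.1 to 32.8 per array. No fold is given for it, and its transcript can still be present at a level or in a form that this probe does not measure.

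**Figure D1:**
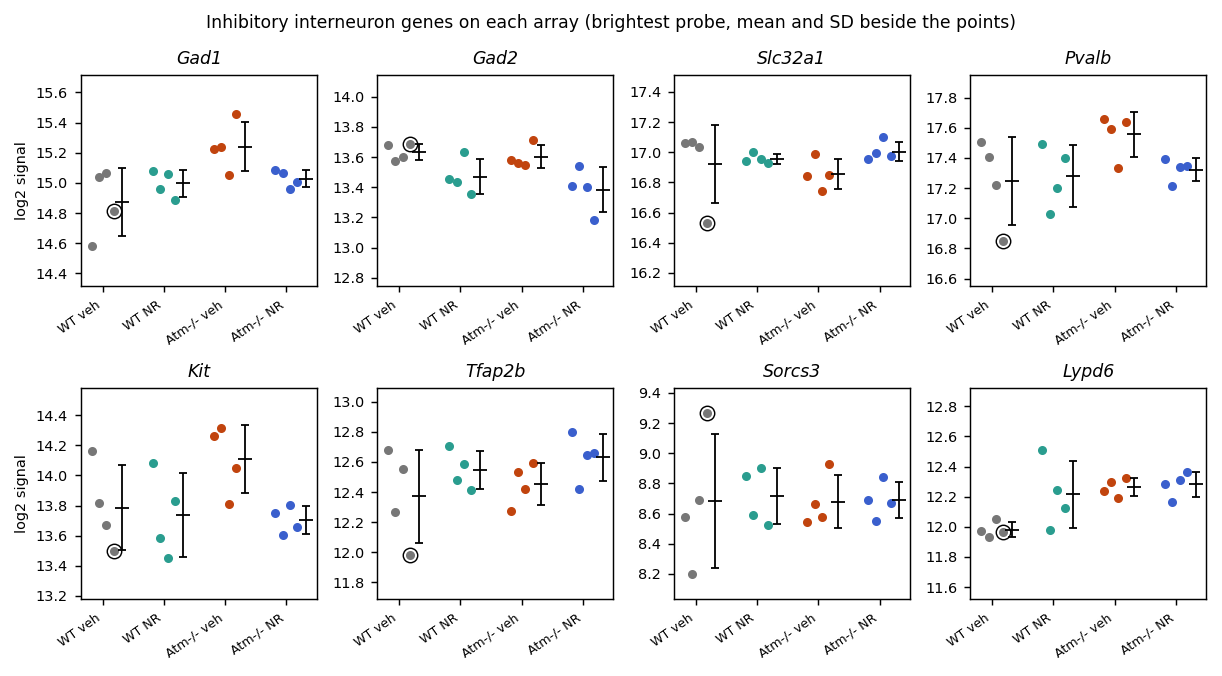
Log2 signal of the brightest probe of 8 interneuron genes on 16 arrays, by group, with 1 point per array and, beside the points, the mean and SD of 4 arrays. Every panel spans the same range of log2 signal. The ringed point is WT veh 4, which was the lowest array for Slc32a1, Pvalb and Tfap2b and the highest for Sorcs3.

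Pvalb encodes parvalbumin, a calcium buffer of molecular layer interneurons and Purkinje cells. Log2 signals were 17.51, 17.41, 17.22 and 16.85 in WT veh and 17.66, 17.59, 17.34 and 17.64 in Atm-/- veh. With NR they were 17.49, 17.03, 17.20 and 17.40 in WT and 17.39, 17.21, 17.34 and 17.34 in Atm-/-. Of the Atm-/- veh arrays, 3 lay above every other array, and the fourth lay among the rest. The mean was 17.56 ± 0.15 (SD, n = 4) in Atm-/- veh and 17.25 ± 0.29 (SD, n = 4) in WT veh, a log2 difference of 0.31 (SE 0.14, adjusted p = 0.33). Much of it came with WT veh 4, without which it was 0.18 (adjusted p = 0.49). Atm-/- NR against Atm-/- veh gave -0.23 (SE 0.14, adjusted p = 0.29), and WT NR against WT veh gave 0.04 (SE 0.14, adjusted p = 0.98) with all arrays and -0.10 (adjusted p = 0.82) without WT veh 4. The interval for NR in Atm-/- mice, -0.53 to 0.06, leaves room for a value of 0.69-fold.

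Kit encodes a receptor tyrosine kinase of molecular layer interneurons, whose ligand Kitl is made by Purkinje cells. Its log2 signals were 14.16, 13.82, 13.67 and 13.50 in WT veh and 14.26, 14.31, 13.81 and 14.05 in Atm-/- veh. With NR they were 14.08, 13.59, 13.45 and 13.83 in WT and 13.75, 13.60, 13.81 and 13.66 in Atm-/-. Atm-/- NR lay below Atm-/- veh without overlap, although the closest arrays both round to 13.81, while both WT groups were wide and overlapped all others. Kit had the widest gap between group means among these genes: Atm-/- NR against Atm-/- veh gave -0.40 (SE 0.16, adjusted p = 0.12), or 0.76-fold with a 95% interval of 0.60 to 0.96. Atm-/- veh against WT veh gave 0.32 (SE 0.16, adjusted p = 0.37), and 0.23 (adjusted p = 0.52) without WT veh 4. In WT mice NR gave -0.05 (SE 0.16, adjusted p = 0.98) with all arrays and -0.15 (adjusted p = 0.80) without WT veh 4, and the NR effects of the genotypes differed by -0.36 (SE 0.23, adjusted p = 0.84).

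Mast cells also express Kit, and 5 of 6 mast cell markers, Cpa3, Cma1, Mcpt4, Ms4a2 and Fcer1a, did not pass the filter on dim probes. The remaining one, Tpsb2, differed by 0.67 (adjusted p = 0.39) between Atm-/- veh and WT veh and by 0.59 (adjusted p = 0.29) between Atm-/- NR and Atm-/- veh, so that in the latter it moved against Kit. Relative to all arrays, Tpsb2 was at -1.42 on WT veh 4 and at -0.51 to -0.13 on the other WT veh arrays. Its difference without WT veh 4 is not given. Purkinje cell markers, which matter for Gad1, Gad2, Slc32a1 and Pvalb, were measured for 12 of 12 genes, all well above background on 16 of 16 arrays. Their mean per array, relative to all arrays, was -0.50 to 0.11 in WT veh, -0.01 to 0.13 in WT NR, -0.24 to 0.05 in Atm-/- veh and 0.07 to 0.16 in Atm-/- NR. It was higher on every Atm-/- NR array than on any Atm-/- veh array, the opposite direction to Gad1, Gad2 and Pvalb and the same direction as Slc32a1, and its part in those values was not tested.

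Tfap2b encodes AP-2β, a transcription factor of GABAergic neurons that acts when interneurons acquire their identity. Its brighter probe gave log2 signals of 12.68, 12.27, 12.55 and 11.98 in WT veh, 12.71, 12.48, 12.59 and 12.41 in WT NR, 12.27, 12.53, 12.42 and 12.59 in Atm-/- veh and 12.80, 12.42, 12.64 and 12.66 in Atm-/- NR. All 4 groups overlapped. NR gave like differences in both genotypes, 0.18 in Atm-/- (SE 0.14, adjusted p = 0.43) and 0.18 in WT (SE 0.14, adjusted p = 0.82), and the WT value was 0.05 (adjusted p = 0.93) without WT veh 4. Atm-/- veh against WT veh gave 0.08 (adjusted p = 0.81), which turned to -0.05 (adjusted p = 0.88) without WT veh 4. The dimmer probe gave 0.15 and 0.19 for NR in Atm-/- and WT, but differed in sign from the brighter one between genotypes, with -0.08 with vehicle and -0.13 with NR against 0.08 and 0.08.

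Sorcs3, a sorting receptor that marks a subset of molecular layer interneurons, had group means between 8.68 and 8.72. Its log2 signals were 8.58, 8.20, 8.69 and 9.27 in WT veh, 8.85, 8.59, 8.90 and 8.52 in WT NR, 8.54, 8.67, 8.58 and 8.93 in Atm-/- veh and 8.69, 8.55, 8.84 and 8.67 in Atm-/- NR. The highest and the lowest of the 16 arrays were both in WT veh, so that the spread within this group exceeded every difference between groups. Differences ran from -0.03 to 0.03 over the 4 comparisons (SE 0.18, lowest adjusted p = 0.98). Without WT veh 4, Atm-/- veh against WT veh gave 0.19 (adjusted p = 0.52) and WT NR against WT veh gave 0.23 (adjusted p = 0.60).

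Lypd6, a membrane-anchored protein of the Ly6 family that modulates nicotinic receptors, was lowest in WT veh. The brighter probe gave log2 signals of 11.98, 11.94, 12.05 and 11.96 in WT veh and 12.24, 12.30, 12.19 and 12.32 in Atm-/- veh. With NR it gave 12.51, 11.98, 12.24 and 12.13 in WT and 12.28, 12.16, 12.31 and 12.36 in Atm-/-. WT veh and Atm-/- veh did not overlap, and the SD was 0.05 in the former and 0.06 in the latter. The log2 difference was 0.28 (SE 0.10, adjusted p = 0.24) with all arrays and 0.28 (adjusted p = 0.24) without WT veh 4, or 1.22-fold with a 95% interval of 1.05 to 1.40. WT NR against WT veh gave 0.23 (SE 0.10, adjusted p = 0.61, and 0.23 with adjusted p = 0.49 without WT veh 4), Atm-/- NR against Atm-/- veh 0.02 (SE 0.10, adjusted p = 0.93) and Atm-/- NR against WT NR 0.07. The dimmer probe, with log2 signals of 6.37 to 7.58, gave 0.19 (SE 0.18, adjusted p = 0.65) for Atm-/- veh against WT veh, and there the groups overlapped.

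Counted over the 8 measured genes, none passed an adjusted p under 0.05 in any comparison by limma. For Atm-/- veh against WT veh 0 of 8 were called, with 0.0537% of all probes called, and 3 (Gad1, Lypd6 and Pvalb, all higher) had an unadjusted p under 0.05, with 14.6% of all probes at that level. Lypd6 was the only one of 8 whose groups did not overlap, as in 7.6% of all probes. For Atm-/- NR against Atm-/- veh 0 of 8 were called, although 9.04% of all probes were. Gad2 and Kit, both lower, had an unadjusted p under 0.05 (2 of 8, against 27.3% of all probes) and were the ones without overlap (2 of 8, against 20.2%). For WT NR against WT veh 0 of 8 were called, as were 0% of all probes, Lypd6 alone had an unadjusted p under 0.05, against 7.62%, and 0 of 8 were without overlap, against 4.09%. For Atm-/- NR against WT NR 0 of 8 were called, with 0.0537% of all probes called, and 0 of 8 had an unadjusted p under 0.05, against 5.21%, and 0 of 8 were without overlap, against 4%.

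The median log2 difference of the 8 genes was 0.18 for Atm-/- veh against WT veh, with a median of 0.00 over all probes, and -0.10 for Atm-/- NR against Atm-/- veh, also with 0.00 over all probes. In size and without sign, the median was 0.18 in the former, against 0.16 over all probes, and 0.19 in the latter, against 0.21. A joint test of any difference among the 4 groups called 0 of 8 genes and 4.84% of all probes, and its lowest adjusted p was 0.15, for Lypd6. The test of the difference between the NR effects called 0 of 8 genes and 0% of all probes, with Gad1 alone at an unadjusted p under 0.05, against 5.27%. By the methods' t-test on z-scores, an unadjusted p of at most 0.05 was reached by 2 of the 10 probes for Atm-/- veh against WT veh (Gad1 and Lypd6), 4 for Atm-/- NR against Atm-/- veh (Gad2, Kit, Pvalb and Slc32a1), 1 for WT NR against WT veh (Gad2) and 0 for Atm-/- NR against WT NR. Over all probes the shares were 11.7%, 26.9%, 6.65% and 6.42%. After Benjamini-Hochberg adjustment it was reached by 0 of the 10 in each, with 0%, 8.55%, 0% and 0.0268% of all probes. Leaving out the 4 arrays without Y-linked signal, 0 were called in every comparison, and the share of all probes called for Atm-/- NR against Atm-/- veh was 0.948%. There Gad1 was at 0.43 (adjusted p = 0.33) and Kit at 0.42 (adjusted p = 0.35) for Atm-/- veh against WT veh, and Kit was at -0.49 (adjusted p = 0.12) for Atm-/- NR against Atm-/- veh.

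Without WT veh 4, 0 of 8 genes were called for Atm-/- veh against WT veh (0.0346% of all probes) and the median difference was 0.18, against -0.02 over all probes. An unadjusted p under 0.05 was then held by Gad1, Lypd6 and Slc32a1 (3 of 8, against 15.9%), so that Slc32a1, lower in Atm-/- veh, stood in place of Pvalb, and Lypd6 and Slc32a1 were without overlap (2 of 8, against 14.4%). For WT NR against WT veh 0 of 8 were called (0.00267% of all probes), the median was -0.03, as over all probes, Lypd6 alone had an unadjusted p under 0.05 (against 10.2%) and Slc32a1 alone was without overlap (against 10% of all probes).

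A missed threshold does not show that the genes were alike between groups, and the intervals give what these 16 arrays can bound. Over the 8 genes the 95% intervals ran from 0.76-fold to 1.59-fold for Atm-/- veh against WT veh, from 0.60-fold to 1.39-fold for Atm-/- NR against Atm-/- veh, from 0.76-fold to 1.39-fold for WT NR against WT veh and from 0.75-fold to 1.30-fold for Atm-/- NR against WT NR. Without WT veh 4 they ran from 0.79-fold to 1.52-fold for Atm-/- veh against WT veh and from 0.71-fold to 1.44-fold for WT NR against WT veh. For each of these 8 genes, a loss or gain of 2-fold in array signal lies outside every interval. Each interval holds for 1 gene and not for all of them jointly, and Slc6a5 is not covered. The intervals concern array signal and not amounts of transcript. They do not separate genotype from slide or NR from slide row.

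**Figure D2:**
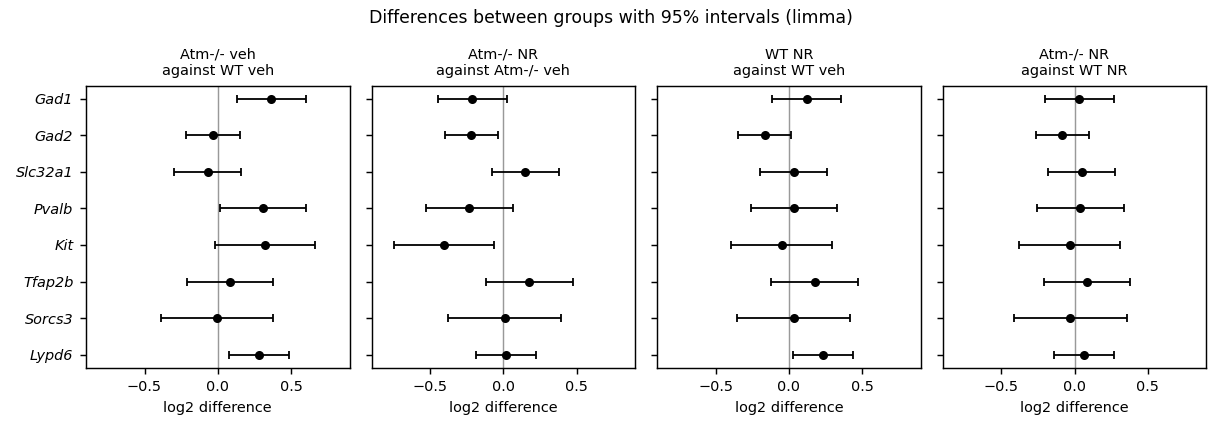
Log2 difference between group means, with 95% intervals from limma, for 8 interneuron genes in 4 comparisons (4 arrays per group). Gad1, Pvalb and Lypd6 lie to the right of 0 with intervals that exclude it in Atm-/- veh against WT veh, and Gad2 and Kit lie to the left in Atm-/- NR against Atm-/- veh. Lypd6 also excludes 0 in WT NR against WT veh, and no adjusted p is under 0.05.

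Across the 16 arrays the 8 genes did not vary as a block. Over 28 pairs the Pearson r between log2 signals ran from -0.57 to 0.87 with a median of 0.16, and 4 pairs were above 0.5. These values describe arrays that share the groups, the slides and the normalization. Pvalb and Kit had the highest, r = 0.87 and Spearman rho = 0.93, and r was 0.92 without the 2 arrays farthest from the median of Pvalb. After the group means were removed r was 0.84, and 0.83 also without WT veh 4. Ranked by r with Pvalb among 16736 other named genes, Kit stood at place 45, and Pvalb at place 54 among those ranked for Kit.

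Of the other 3 pairs above 0.5, Tfap2b and Lypd6 had r = 0.57, and 0.59 after removal of group means and without WT veh 4, while Gad1 and Lypd6 had r = 0.54, and 0.31 after the same steps. Some pairs depended on WT veh 4. Slc32a1 and Tfap2b had r = 0.62, which was 0.60 after removal of group means and 0.05 when WT veh 4 was also left out, and Slc32a1 and Sorcs3 went from -0.57 to -0.63 and 0.13. Tfap2b and Sorcs3 moved the other way, from -0.07 to -0.09 and, without WT veh 4, 0.78. The enzymes Gad1 and Gad2 had r = 0.10 and rho = 0.16, and 0.19 after removal of group means. The genes most like the mean of all 8 were Pcdhb12 (r = 0.87), Lrrc38 (r = 0.84), Insrr (r = 0.83), Lrrc3b (r = 0.82), Ppp2r5d (r = 0.81) and Map3k12 (r = 0.81), over 16 arrays and 16729 genes.

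**Figure D3:**
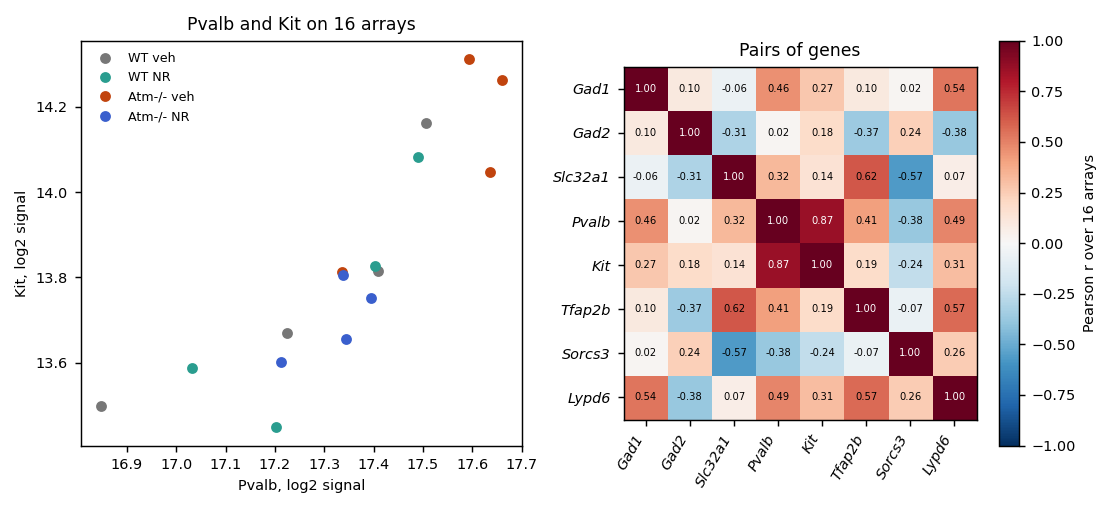
Left, log2 signal of Kit against Pvalb on 16 arrays, coloured by group. Right, Pearson r over 16 arrays for each pair of 8 interneuron genes, from -1 (blue) to 1 (red). Kit and Pvalb vary together within groups as well as across them (r = 0.87), while most other pairs are pale.

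Around these genes, 48 genes of GABA and glycine breakdown and uptake, glutamate and glutamine supply, inhibitory synapses and further interneuron types were measured. For Atm-/- NR against Atm-/- veh 3 of 48 rose and 0 fell (6.25%, against 9.04% of all probes), and in each of the other 3 comparisons 0 of 48 were called. Gldc, the glycine decarboxylase that breaks glycine down, rose by a log2 difference of 0.49 (SE 0.10, adjusted p = 0.012). Its log2 signals were 11.64, 11.84, 11.57 and 11.86 in Atm-/- veh and 12.29, 12.11, 12.27 and 12.21 in Atm-/- NR, with no overlap. Abat, the transaminase that breaks down GABA, rose by 0.51 (SE 0.13, adjusted p = 0.029), from 15.65 to 15.99 in Atm-/- veh to 16.14 to 16.40 in Atm-/- NR. A dimmer probe of Abat gave 0.02 (adjusted p = 0.96), so that the probes of this gene disagreed. Klhl1, an actin-binding protein, rose by 1.36 (SE 0.39, adjusted p = 0.045), from 8.70 to 8.93 in Atm-/- veh to 9.37 to 10.96 in Atm-/- NR, and its WT NR arrays reached 11.19. Klhl1 was highest on WT NR 2 and 3 and Atm-/- NR 2 and 3, at 10.75 to 11.19. On these arrays the mean of 3 brainstem markers, relative to all arrays, was 0.98 to 1.30, against at most 0.83 elsewhere. WT veh 4 had a brainstem mean of 0.76 and Klhl1 at 8.68. The part of brainstem tissue in the Klhl1 values was not tested. Gldc remained under the threshold in 24 of 25 other settings, Abat in 18 of 25 and Klhl1 in 10 of 25, and none of them was called when only arrays with Y-linked signal were used.

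Within the lists, GABA breakdown and uptake had 1 of 6 genes called in that comparison, glycine breakdown and uptake 1 of 5, further interneuron genes 1 of 19, glutamate and glutamine supply 0 of 6 and inhibitory synapse scaffold and receptors 0 of 12. Their median log2 differences were -0.14, 0.05, -0.03, 0.02 and 0.10, against 0.00 over all probes. In the lists with no call, the lowest p was that of Slc38a2, a glutamine transporter (-0.36, adjusted p = 0.095), and of Nlgn2, the adhesion protein of inhibitory synapses (-0.23, adjusted p = 0.10). Sst, somatostatin of Golgi cells, had the widest difference of the further interneuron genes, 2.55 with a 95% interval of -0.88 to 5.98 (adjusted p = 0.32). It was named after its values were seen.

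**Figure D4:**
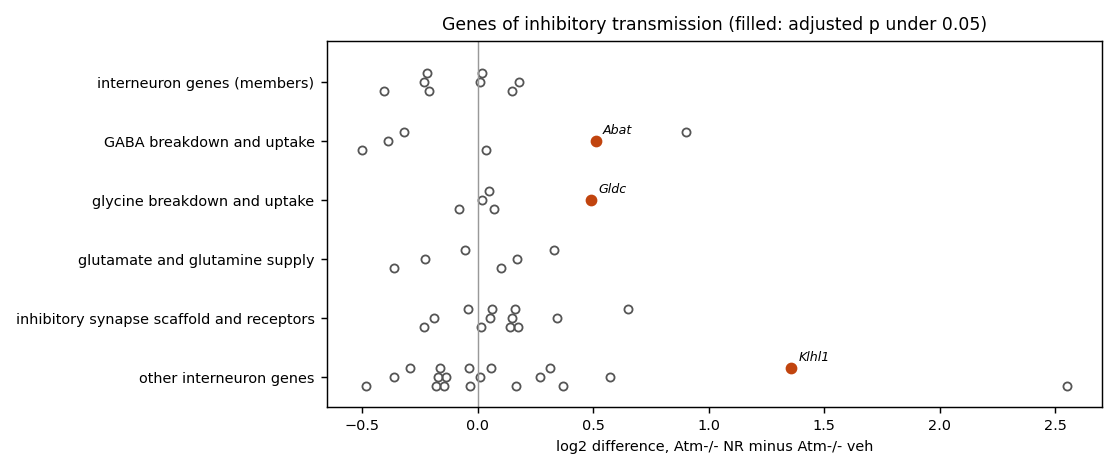
Log2 difference between Atm-/- NR and Atm-/- veh for 8 interneuron genes and 48 genes of inhibitory transmission, 1 point per gene, by list. Filled points are the 3 genes with an adjusted p under 0.05, all to the right of 0, while the interneuron genes lie from -0.40 to 0.18 and none is filled.

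For Atm-/- veh against WT veh genes of these lists named by their low p were Slc12a5, the chloride extruder KCC2 (-0.22, adjusted p = 0.22), Gldc (-0.21, adjusted p = 0.34) and Slc38a1 (-0.10, adjusted p = 0.64). Among markers of other cells, Car8 of Purkinje cells rose by 1.10 (adjusted p = 0.042) and Slc17a7 of granule cells fell by 0.54 (adjusted p = 0.026) for Atm-/- NR against Atm-/- veh, 1 of 12 Purkinje and 1 of 10 granule cell markers. Markers of astrocytes (7), oligodendrocytes (6), microglia (5), endothelium (5), choroid plexus (4), forebrain (5), brainstem (3) and mast cells (1) had 0 calls in the comparisons between groups. Their part in the values of the interneuron genes was not tested.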

How the data were processed

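The files the authors deposited hold 1 scan each, read with Feature Extraction (version 12.0.3.1), and give every spot an intensity from which the local background was taken off. They carry no scaling across arrays. A further deposited file holds quantile normalized z-scores, used as an alternative score. RNA with an integrity number under 7.5 had been discarded, per the study's methods.

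Accessions of the probes were looked up in RefSeq (GRCm38.p6), and 32994 of 56605 probes received a name. The array design cites build mm9, so no gene coordinates were taken from that list. A probe entered the tests where, in 1 group or more, a share of at least 0.5 of its spots cleared background on all 4 arrays. Their log2 signals were quantile normalized, spots marked as outliers were set aside and the spots of a probe were averaged. The brightest probe stood for its gene.

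Groups were compared with limma 3.58.1 in R 4.3.3 (data.table, version 1.17.8), with 4 group means over 16 arrays, 12 residual degrees of freedom and Benjamini-Hochberg adjustment over 37253 probes, called at an adjusted p under 0.05. The model was tested on simulated arrays with independent noise for each probe and known changes in some probes. Those changes were larger than the differences of the interneuron genes. The simulated arrays held no slide or tissue effect, so that the test does not cover such effects. The labels name separate mice, so that p-values measure the spread between mice, and the number of arrays limits the precision.

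The interneuron genes and all lists were chosen with earlier results of these data known. Named genes were all 9 interneuron genes, Atm, the called genes of each list or else 1 or 2 with the smallest p, and the 6 genes most correlated with the mean of the interneuron genes. From lists of cell markers only called genes, Tpsb2 and genes that set WT veh 4 apart are named. Alternatives were scaling to the 75th percentile, normexp with an offset of 50 (on median spot signals), the deposited z-scores, no filter, probes detected on all 16 arrays, the mean of all probes of a gene, the arrays of both groups alone, the replicate number as a block, each array left out, the methods' t-test, and, chosen after seeing the data, the arrays with Y-linked signal only. The z-ratio rule of the methods was not run. Fold changes of the authors were not used. The values of some single list genes are not reported here.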

Additional observations from a re-analysis of the deposited data

Results flagged for a closer look

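In 2 of 40 groups of 4 arrays tested, over 10 probes and 4 groups, a single array lay far from the others of its group by Dixon's criterion, where chance marks about 1 in 20 groups. Slc32a1 had a log2 signal of 16.53 in WT veh replicate 4, against 17.03 to 17.07 on the other arrays of the group. This is the array with the raised choroid plexus and forebrain markers. The dimmer Lypd6 probe had a log2 signal of 7.58 in Atm-/- NR replicate 1, against 6.56 to 6.68 on the others, while the brighter Lypd6 probe was at 12.28 on that array, within the 12.16 to 12.36 of its group.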

How the results depend on the processing

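No interneuron gene was called by limma in any comparison under any alternative, and the smallest adjusted p among them was 0.082. The share of all probes called ran over these alternatives from 0.948% to 11.9% for Atm-/- NR against Atm-/- veh, from 0.0188% to 0.122% for Atm-/- veh against WT veh, from 0% to 0.0834% for WT NR against WT veh and from 0.0321% to 0.0755% for Atm-/- NR against WT NR. By the methods' t-test before adjustment 2 of the 10 probes passed for Atm-/- veh against WT veh, 4 for Atm-/- NR against Atm-/- veh and 1 for WT NR against WT veh. Differences of the other sign were all in genes far from the threshold, and the cause was not tested. For Sorcs3 these were 0.058 with scaling to the 75th percentile and 0.031 with only the Y-linked arrays (Atm-/- veh against WT veh), and -0.057 with scaling to the 75th percentile, -0.020 with normexp, -0.0050 in z-scores, -0.015 without a filter and -0.022 with the Y-linked arrays (Atm-/- NR against Atm-/- veh). With normexp, Gad2 was at 0.0013 for Atm-/- veh against WT veh, Lypd6 at -0.013 for Atm-/- NR against Atm-/- veh, and Pvalb at -0.0086 and Slc32a1 at -0.034 for WT NR against WT veh. With the Y-linked arrays only, Lypd6 was at -0.034 for Atm-/- NR against Atm-/- veh, Pvalb at -0.12 for WT NR against WT veh and Kit at 0.20 for Atm-/- NR against WT NR. Averaging the Tfap2b probes gave -0.00013 for Atm-/- veh against WT veh and -0.021 for Atm-/- NR against WT NR, and its difference between NR effects was -0.034 with normexp, -0.0025 in z-scores, -0.021 with averaged probes and -0.0066 with the Y-linked arrays.

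With each array left out in turn, 45 of 640 values changed sign. The ranges that cross 0 were, for Atm-/- veh against WT veh, -0.046 to 0.19 for Tfap2b and -0.17 to 0.19 for Sorcs3. For Atm-/- NR against Atm-/- veh they were -0.043 to 0.092 for Sorcs3 and -0.010 to 0.057 for Lypd6. For WT NR against WT veh they were -0.17 to 0.075 for Kit, -0.13 to 0.23 for Sorcs3, -0.099 to 0.12 for Pvalb and -0.097 to 0.080 for Slc32a1. For Atm-/- NR against WT NR they were -0.13 to 0.083 for Kit, -0.092 to 0.035 for Sorcs3, -0.043 to 0.11 for Pvalb, -0.012 to 0.16 for Lypd6 and -0.0050 to 0.059 for Gad1. For the difference between NR effects they were -0.10 to 0.13 for Tfap2b, -0.22 to 0.14 for Sorcs3 and -0.10 to 0.015 for Gad2.

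Arrays with the same replicate number did not deviate together (r from -0.15 to 0.20), so the numbers were not taken as pairs. With the replicate number as a block 0 interneuron genes were called, and all 40 values kept their sign. The 4 arrays per group limit the precision. Among the listed genes called for Atm-/- NR against Atm-/- veh, no single array ended the call of Gldc. Abat (adjusted p up to 0.27 over all settings) and Slc17a7 (up to 0.083) lost it without Atm-/- veh 1 or 4 or Atm-/- NR 2, 3 or 4. Klhl1 (up to 0.13) lost it without WT veh 1, 2 or 3, WT NR 3 or 4, any Atm-/- veh array, or Atm-/- NR 2 or 3, and Car8 (up to 0.20) without WT NR 2, 3 or 4, Atm-/- veh 1, 3 or 4, or any Atm-/- NR array. Car8 also lost it with the replicate block and without a filter on dim probes, and Klhl1 without that filter, with only the arrays of both groups and with averaged probes. Averaging the probes ended the call of Abat, and using only the Y-linked arrays ended those of Gldc, Abat, Klhl1 and Car8.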
